A study of Mus musculus with 6 samples.

Results

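Retinoic acid pathway genes were followed in RNA of whole embryonic mouse kidneys taken at E13.5, a stage of ureteric bud branching and early nephron formation. They were 10 of the 22394 genes in the deposited table, chosen by name: the retinol and retinaldehyde enzymes Rdh10 and Dhrs3, the retinaldehyde dehydrogenases Aldh1a1, Aldh1a2 and Aldh1a3, the degrading enzyme Cyp26b1, the binding protein Crabp1, and the receptors Rara, Rarb and Rarg. The 3 mutant libraries had the genotype Foxd1Cre;Ptch1 (flox/-), with Cre recombinase expressed from Foxd1, a gene of the renal stromal progenitors, and with a floxed and a null allele of Ptch1. The 3 control libraries had the genotype Ptch1 (flox/+), with a floxed and a wild-type allele and no Cre named. Both groups therefore carried a floxed allele. Foxd1Cre and the null Ptch1 allele, which is present in every cell of the mutants, differed between the groups as well, and these cannot be told apart from loss of Ptch1 in the Foxd1 lineage. The design text describes paired kidneys of 3 mutant mice and of control littermates, and p-values measure the spread between these libraries. Because Ptch1 encodes the receptor that holds Hedgehog signalling off, the comparison asks how these genes stood when that brake was removed from the stroma.

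Retinoic acid is made from retinol by successive oxidations. RDH10 converts retinol to retinaldehyde, DHRS3 converts retinaldehyde back to retinol, and the ALDH1A enzymes convert retinaldehyde to retinoic acid. CRABP proteins bind retinoic acid in the cytosol, CYP26 enzymes break it down, and receptors of the RAR family, paired with RXR, switch on genes that hold a retinoic acid response element. In the embryonic mouse kidney, Aldh1a2 is known as an enzyme gene of the cortical stroma, and retinoic acid signalling is known to maintain the receptor gene Ret in the ureteric bud.

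DR5, a pair of hexamers 5 bases apart, is the textbook retinoic acid response element. The promoters of Rarb and of the degrading enzyme gene Cyp26a1 are shown because they hold a DR5 match, and that of Aldh1a2 because its difference between the groups leads the results. Each line gives the 250 bases before the start site in RefSeq (GRCm38.p6), read 5′ to 3′ on the strand of the gene, and capitals mark the match to the DR5 motif. That motif was searched on both strands as the hexamer AGGTCA, the hexamer AGTTCA, the hexamer GGGTCA or the hexamer GGTTCA, then any 5 bases, then again any of these hexamers.
Rarb, chr14:16575477-16575726, minus strand: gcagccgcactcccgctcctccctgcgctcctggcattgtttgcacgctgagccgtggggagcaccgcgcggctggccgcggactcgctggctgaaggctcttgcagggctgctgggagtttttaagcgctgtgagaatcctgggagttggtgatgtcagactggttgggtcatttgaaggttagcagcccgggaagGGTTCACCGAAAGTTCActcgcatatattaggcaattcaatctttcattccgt
Cyp26a1, chr19:37697558-37697807, plus strand: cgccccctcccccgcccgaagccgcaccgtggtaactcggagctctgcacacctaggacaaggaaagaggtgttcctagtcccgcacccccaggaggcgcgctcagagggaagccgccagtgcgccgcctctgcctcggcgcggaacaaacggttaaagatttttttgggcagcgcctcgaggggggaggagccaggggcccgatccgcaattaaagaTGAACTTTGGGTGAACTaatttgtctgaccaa
Aldh1a2, chr9:71215539-71215788, plus strand: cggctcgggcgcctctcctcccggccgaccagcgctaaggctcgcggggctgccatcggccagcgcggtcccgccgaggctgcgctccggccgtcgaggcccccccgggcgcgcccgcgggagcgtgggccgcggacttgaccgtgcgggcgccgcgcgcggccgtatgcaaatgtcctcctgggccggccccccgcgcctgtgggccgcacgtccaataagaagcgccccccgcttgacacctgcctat
In Rarb the match ran from 53 to 37 bases before the start site. In Cyp26a1 it ran from 32 to 16 bases before the start site, on the opposite strand. Of all 32851 windows of 300 bases (250 before and 50 after a start), 32 held the motif, or 0.0974%. RefSeq windows were matched for 8 of the 10 genes, and of these only Rarb held DR5 in its windows. The Aldh1a2 window held no DR5 and no GACCACCCA, the motif bound by the GLI factors of the Hedgehog pathway, searched on both strands. That motif stood in 83 windows (0.253%) and in none of the windows of these 8 genes.

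The libraries held 13261588 to 47847925 reads in mutants and 21644399 to 25416896 reads in controls. Ptch1, the targeted gene, was at 23.5, 35.8 and 29.8 FPKM in mutants 1 to 3, against 8.26, 7.91 and 7.60 FPKM in controls 1 to 3 (limma adjusted p = 0.00443). FPKM are reads scaled to gene length and library depth. Since Hedgehog signalling itself raises Ptch1, this level over all exons is no check of the deletion. Control 2 stood apart from the other libraries, with a score of 75.8 on principal component 1, which held 39.4% of the variance, while the others scored -24.6 to 8.49, and with 0.367% mitochondrial reads against 1.21% to 2.12%. The nephron epithelium list was highest in control 2 and next highest in mutant 1, by its summed FPKM (230 in mutant 1 and 286 in control 2, against 192 to 213 elsewhere). The ureteric epithelium list was highest in mutant 1 (345) and next highest in control 2 (269, against 141 to 203). Xist, the RNA of X inactivation, was at 0.103, 0.206 and 6.19 FPKM in mutants 1 to 3, against 72.9, 0.0471 and 53.3 FPKM in controls 1 to 3. Ddx3y, a Y-linked gene, was at 16.2, 15.8 and 13.9 FPKM in mutants 1 to 3, against 0.0598, 17.8 and 0.0177 FPKM in controls 1 to 3. Mutant 3 thus held RNA of both genes, controls 1 and 3 had high Xist and almost no Ddx3y, and sex was not balanced between the groups. All 9 genes of the cortical stroma list were in the table, with sums of 447 to 571 FPKM in mutants and 346 to 598 FPKM in controls.

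None of the 10 genes passed the test over all genes (limma on log2 of normalized count + 1, Benjamini-Hochberg adjusted p under 0.05), where 52 of 16933 genes, or 0.307%, were called, 0.219% higher and 0.0886% lower. All 10 passed the filter on low values. At an unadjusted p under 0.05 there were 2, Aldh1a2 and Aldh1a1, both lower in the mutants, where 4.37% of all genes tested were lower at that level. The same pair alone had groups that did not overlap, again both lower. Of all genes tested, 16.7% had groups that did not overlap in either direction and 9.09% in the lower direction, so 2 of 10 is near the background. The median log2 fold change was -0.12 over the 10 genes and -0.01 over all genes tested. Of the 10 genes, 8 were negative, where 8625 of all 16933 genes tested were. Of these 8, Rdh10 (-0.002) and Crabp1 (-0.03) were close to 0. The authors' deposited table called none of the 10, where it called 4.61% of the 15881 genes to which it gave an adjusted p.

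**Figure D1:**
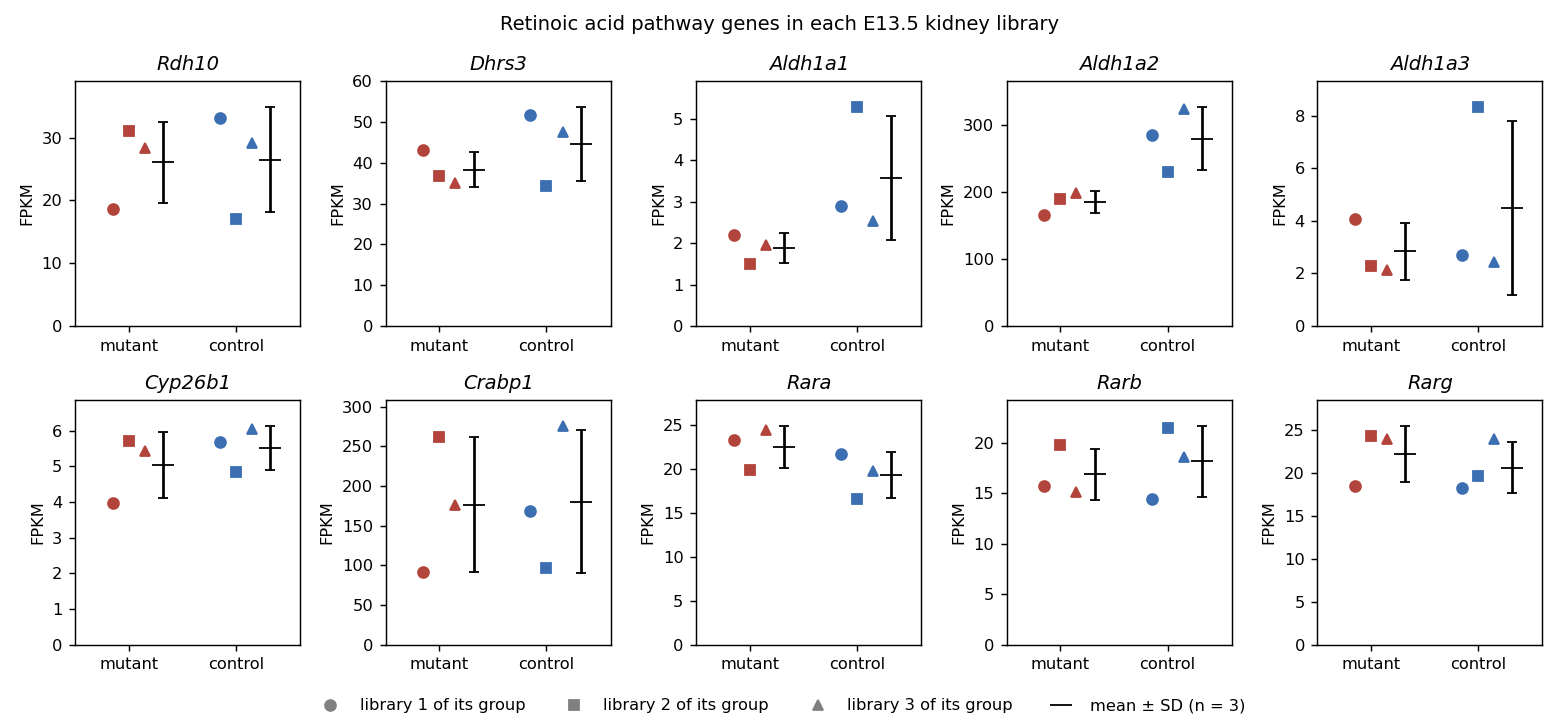
FPKM of the 10 retinoic acid pathway genes in each library, with mutants at the left and controls at the right of each panel; the marker shape gives the library number, and the black dash and bar give the mean ± SD of 3 libraries. Aldh1a2 lay between 166 and 198 FPKM in the mutants and between 229 and 323 FPKM in the controls, and Aldh1a1 also did not overlap, while the other 8 genes did.

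Among the genes of synthesis, Aldh1a2 had by far the most RNA and the clearest difference. Aldh1a2 (chromosome 9, 71215789 to 71296243, plus strand, GENCODE M21 on GRCm38) was at 166, 189 and 198 FPKM in mutants 1 to 3, against 285, 229 and 323 FPKM in controls 1 to 3. Every mutant was below every control, and the mutants lay within a narrower range than the controls. The means were 185 ± 16.6 FPKM in mutants and 279 ± 46.9 FPKM in controls (SD, n = 3 each), a difference of means of -33.9%. On the log2 scale the fold change was -0.59 (SE 0.16, 95% interval -0.96 to -0.21, limma adjusted p = 0.305), a fold between 0.514 and 0.862. The authors' deposited table gave -0.51 (SE 0.17), adjusted p 0.0575. The value rested on 5736 to 21451 reads per library, so counting error was small beside the spread between libraries.

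The Aldh1a2 difference held its sign in every alternative run, with log2 fold changes of -0.72 to -0.32. The largest was without control 2 (-0.72, limma adjusted p = 0.0771). The smallest (-0.32) came from the libraries that expressed Ddx3y, 3 mutants against control 2 alone. Among controls, the libraries with high Xist were the higher ones for Aldh1a2. In the libraries with Ddx3y, sex cannot be told apart from the other ways in which control 2 stood apart. The part of sex in the difference was therefore not tested. With library weights Aldh1a2 passed the test (log2 fold change -0.68, limma adjusted p = 0.024). That setting called 380 genes, against 52 in the main test, and its weight estimate stopped short of its tolerance.

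Marker lists of other cell types were read beside Aldh1a2. The sums of the cortical stroma list overlapped between the groups, as did Foxd1 itself, at 34.7, 58.6 and 54.8 FPKM in mutants 1 to 3, against 75.8, 31.5 and 82.4 FPKM in controls 1 to 3. Control 2, the library that stood apart on principal component 1, had the lowest Foxd1, and its Aldh1a2 lay above that of the mutants. Cre was expressed from Foxd1, so Foxd1 RNA in the mutants may not measure the stroma alone, which was not tested. Medullary stroma sums did not overlap, at 142 to 169 FPKM in mutants and 84.6 to 123 FPKM in controls, with 1 of 7 genes called higher, and neither did macrophage sums, at 16.3 to 27.3 FPKM in mutants and 12.9 to 16.1 FPKM in controls, with 0 of 6 genes called. Of 7 skeletal muscle genes, 4 were called lower, with sums of 19.6 to 31.0 FPKM in mutants and 53.1 to 86.1 FPKM in controls. Of 9 endothelial genes, 4 were called higher, with sums of 271 to 321 FPKM in mutants and 147 to 154 FPKM in controls. No gene of these lists was at 0 in any library. Their part in the Aldh1a2 values was not tested, and in whole kidneys fewer cells of a type and less RNA per cell cannot be told apart.

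The remaining ALDH1A genes were low in all libraries. Aldh1a1 (chromosome 19, 20492715 to 20643465, plus strand) was at 2.20, 1.49 and 1.95 FPKM in mutants 1 to 3, against 2.90, 5.28 and 2.54 FPKM in controls 1 to 3. The groups did not overlap, but control 2 stood well above the other controls. Aldh1a1 had a log2 fold change of -0.86 (95% interval -1.58 to -0.15, limma adjusted p = 0.453), and -0.54 without control 2 (limma adjusted p = 0.534). It rested on 41 to 272 reads per library. The value in the authors' deposited table was -1.04, adjusted p 0.11.

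Aldh1a3, a retinaldehyde dehydrogenase gene known from the ureteric epithelium (chromosome 7, 66390890 to 66427517, minus strand), was at 4.09, 2.28 and 2.14 FPKM in mutants 1 to 3, against 2.70, 8.33 and 2.45 FPKM in controls 1 to 3. Control 2 was highest and mutant 1 next, and the groups overlapped. These were also the libraries with the highest sums of the ureteric and nephron epithelium lists. Of the 13 ureteric genes, 11 were tested and none was called, and Upk3a and Aqp2 were at 0 in at least 1 library. The sums were 189 to 345 FPKM in mutants and 141 to 269 FPKM in controls, and their part in the Aldh1a3 values was not tested. For Aldh1a3 the log2 fold change was -0.49 (SE 0.46, 95% interval -1.54 to 0.57, limma adjusted p = 0.699). Without control 2 it was 0.08 (limma adjusted p = 0.956), so the negative sign rested on that library. Against control 2 alone, in the libraries with Ddx3y, the values were -1.61 for Aldh1a3 and -1.50 for Aldh1a1. Control 2 was the highest library for each of these genes, so these values rest on that library. For Aldh1a3 the authors' deposited table gave -0.89, adjusted p 0.116.

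The ALDH1A RNA of these kidneys was almost all Aldh1a2. On the FPKM scale, which allows levels of different genes to be set side by side, Aldh1a2 made up 97.5 ± 0.959% of the family sum in mutants and 97.0 ± 2.25% in controls (SD, n = 3 each). The lowest share, 94.4%, was in control 2, where Aldh1a3 took 3.43%. The family sum therefore followed Aldh1a2, at 172 to 202 FPKM in mutants and 243 to 328 FPKM in controls.

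**Figure D2:**
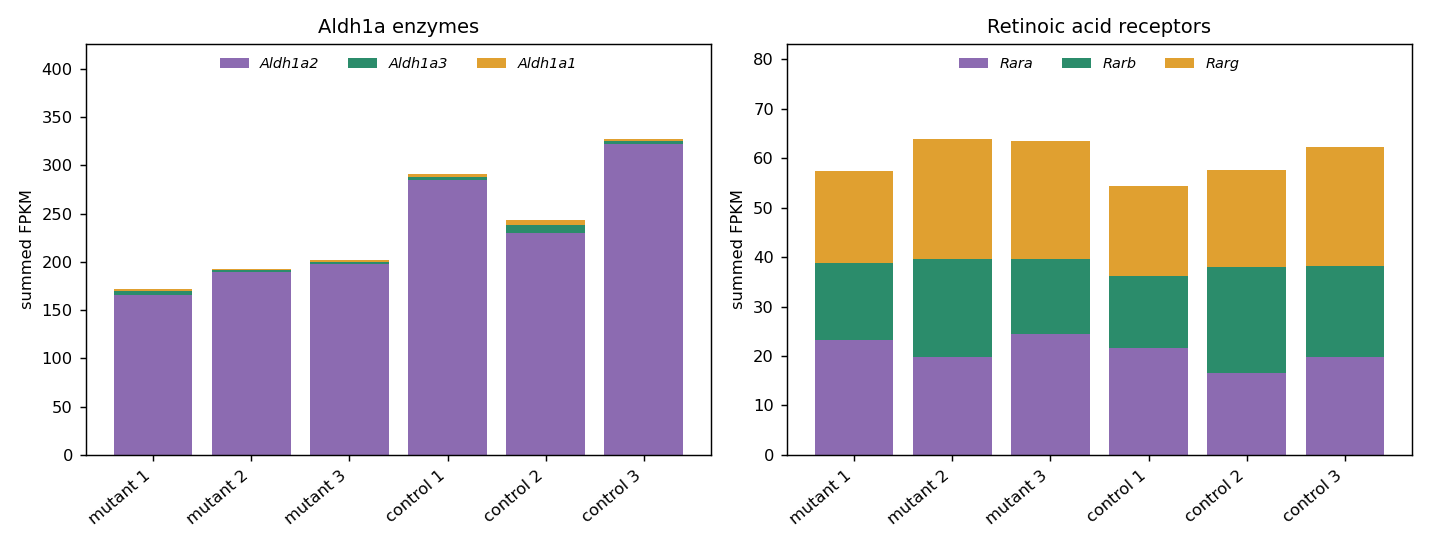
Stacked FPKM of the ALDH1A genes (left) and of the RAR genes (right) in each library, mutants before controls. The ALDH1A sum, nearly all Aldh1a2, was 172 to 202 in mutants and 243 to 328 in controls, while the receptor sum was 57.4 to 64.0 in mutants and 54.4 to 62.3 in controls.

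The enzymes that set retinaldehyde supply did not differ beyond their spread with all 6 libraries. Rdh10 (chromosome 1, 16105774 to 16133734, plus strand), which produces retinaldehyde, was at 18.7, 31.1 and 28.3 FPKM in mutants 1 to 3, against 33.1, 17.1 and 29.2 FPKM in controls 1 to 3. Mutant 1 and control 2 were the low libraries, and the rest lay together. The log2 fold change was -0.002 (95% interval -0.62 to 0.62, limma adjusted p = 0.999), a fold between 0.648 and 1.54. Dhrs3 (chromosome 4, 144892827 to 144928209, plus strand), which works in the opposite direction, was at 43.3, 36.9 and 35.0 FPKM in mutants 1 to 3, against 51.7, 34.3 and 47.7 FPKM in controls 1 to 3. Controls 1 and 3 were above all mutants and control 2 was below them. Dhrs3 had a log2 fold change of -0.20 (SE 0.17, 95% interval -0.59 to 0.19, limma adjusted p = 0.667). Without control 2 it was -0.38 (95% interval -0.68 to -0.08, limma adjusted p = 0.354). The ratio of Rdh10 to Dhrs3 FPKM was 0.432, 0.843 and 0.81 in mutants 1 to 3, against 0.641, 0.498 and 0.612 in controls 1 to 3, with overlapping groups.

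Breakdown and binding genes showed no difference that could be told from the spread. Cyp26b1, which inactivates retinoic acid (chromosome 6, 84571414 to 84593908, minus strand), was at 3.97, 5.70 and 5.43 FPKM in mutants 1 to 3, against 5.68, 4.84 and 6.05 FPKM in controls 1 to 3. Mutant 1 was lowest and control 2 next, and the other libraries lay close together. For Cyp26b1 the log2 fold change was -0.14 (SE 0.18, 95% interval -0.55 to 0.26, limma adjusted p = 0.763), so a fold below 0.684 or above 1.20 lay outside the interval. FPKM of Aldh1a2 were 41.8, 33.2 and 36.5 times those of Cyp26b1 in mutants 1 to 3, against 50.2, 47.4 and 53.3 times in controls 1 to 3. These ratios did not overlap, and they share the Aldh1a2 values given above.

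Crabp1, a cytosolic retinoic acid binding protein gene (chromosome 9, 54764748 to 54773110, plus strand), was the second most abundant of the 10 genes. Its coefficient of variation, 48.28% in mutants and 50.01% in controls, was the highest of the 10 in mutants and second to that of Aldh1a3 (74.0%) in controls. It was at 91.7, 262 and 176 FPKM in mutants 1 to 3, against 168, 96.9 and 276 FPKM in controls 1 to 3. Mutant 1 and control 2 were again the low libraries, and the highest library exceeded the lowest by 2.86 times within mutants and 2.85 times within controls. The log2 fold change was -0.03 (SE 0.44, 95% interval -1.03 to 0.97, limma adjusted p = 0.983). On the fold scale the interval ran between 0.489 and 1.96.

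**Figure D3:**
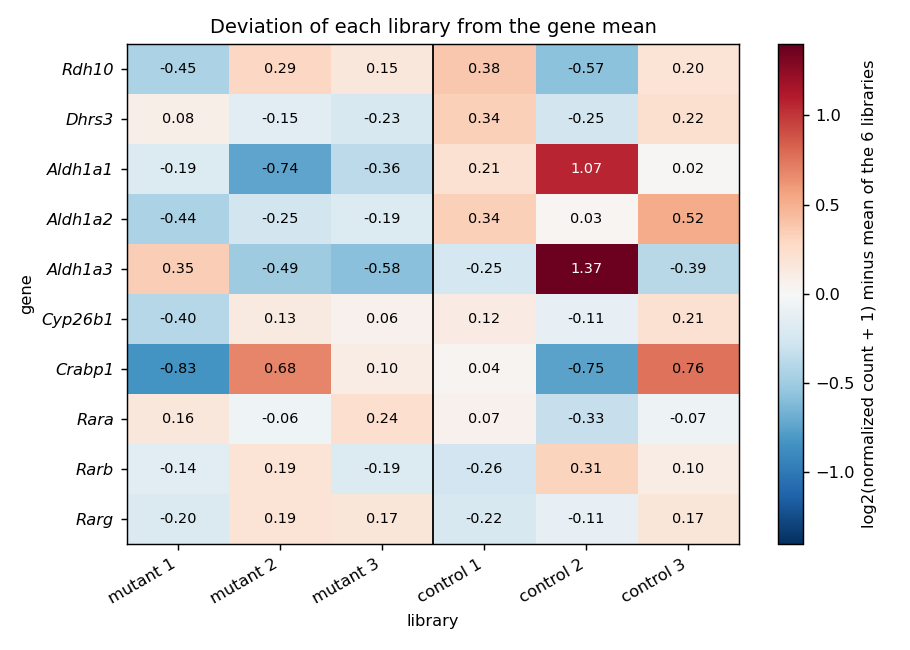
Deviation of log2(normalized count + 1) in each library from the mean of the 6 libraries, for each gene (rows) and library (columns, mutants left of the line and controls right of it). Rdh10, Crabp1 and Cyp26b1 were lowest in mutant 1 and control 2, Aldh1a1 and Aldh1a3 were highest in control 2, and Aldh1a2 was negative in all mutants and positive in all controls.

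The receptors were expressed at similar levels to each other in both groups. Rara (chromosome 11, 98927818 to 98974942, plus strand) was at 23.2, 19.9 and 24.5 FPKM in mutants 1 to 3, against 21.7, 16.5 and 19.7 FPKM in controls 1 to 3. Mutants 1 and 3 were above all controls, and mutant 2 was between control 3 and control 1. The log2 fold change was 0.22 (SE 0.14, 95% interval -0.10 to 0.55, limma adjusted p = 0.611), and the authors' deposited table gave 0.35, adjusted p 0.32. Rarg (chromosome 15, 102234938 to 102257517, minus strand) was at 18.5, 24.3 and 24.0 FPKM in mutants 1 to 3, against 18.3, 19.7 and 24.0 FPKM in controls 1 to 3. High and low libraries were found in each group (log2 fold change 0.11, 95% interval -0.25 to 0.47, limma adjusted p = 0.803).

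Rarb, the receptor whose promoter holds the DR5 match printed above (chromosome 14, 16430839 to 16819156, minus strand), was at 15.7, 19.8 and 15.1 FPKM in mutants 1 to 3, against 14.4, 21.5 and 18.6 FPKM in controls 1 to 3. The groups overlapped, with control 2 highest and control 1 lowest. The log2 fold change was -0.10 (SE 0.18, 95% interval -0.50 to 0.30, limma adjusted p = 0.845), and without control 2 it was 0.03. In GENCODE the gene overlaps Top2b on the plus strand, which was at 28.4 to 36.9 FPKM in mutants and 32.8 to 40.3 FPKM in controls. The sources used here do not give whether reads were assigned by strand, and in the overlap the genes cannot be told apart. The share of the RAR sum was 27.4 ± 3.58% for Rarb in mutants and 31.2 ± 5.47% in controls, 36.7 ± 4.95% for Rara in mutants and 33.4 ± 5.81% in controls, and 36.0 ± 3.27% for Rarg in mutants and 35.4 ± 2.71% in controls (SD, n = 3 each).

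**Figure D4:**
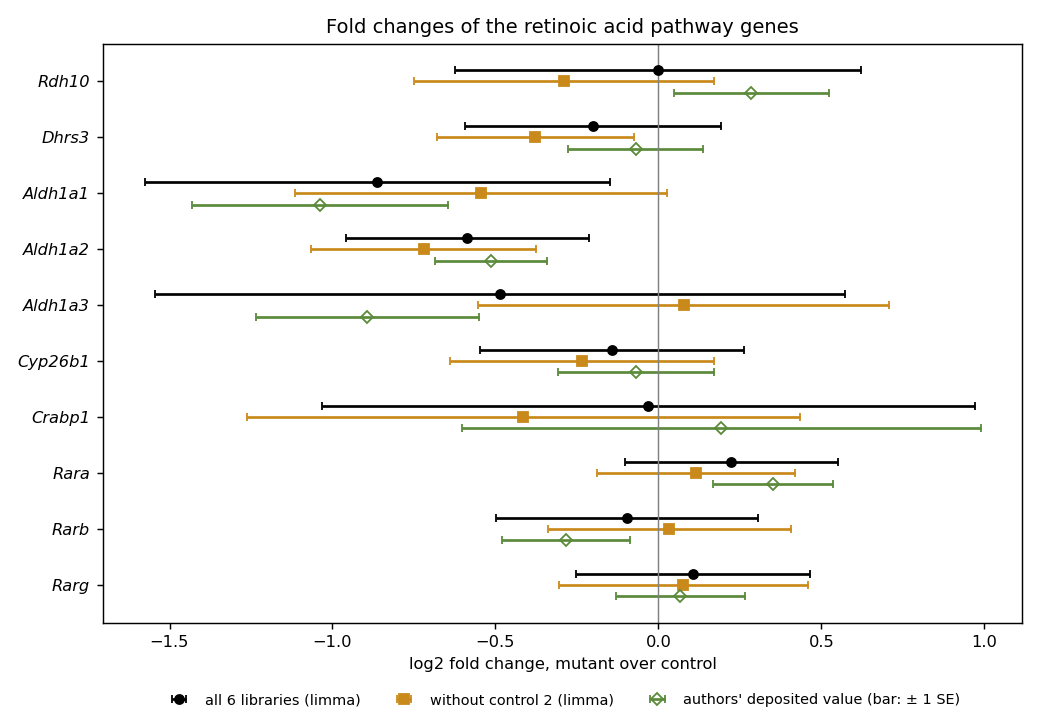
Log2 fold changes, mutant over control, of the 10 genes by limma with all 6 libraries (black, bars are 95% intervals), by limma without control 2 (orange, 95% intervals) and in the authors' deposited table (green, bars are ± 1 SE). The Aldh1a2 interval lay below 0 in both limma fits, that of Aldh1a1 only with all 6 libraries and that of Dhrs3 only without control 2. The Aldh1a3 value moved to 0.08 without control 2.

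By level, the order in mutants was Aldh1a2 (185 FPKM), Crabp1 (176), Dhrs3 (38.4), Rdh10 (26.0), Rara (22.5), Rarg (22.3), Rarb (16.9), Cyp26b1 (5.04), Aldh1a3 (2.84) and Aldh1a1 (1.88). In controls it was Aldh1a2 (279 FPKM), Crabp1 (180), Dhrs3 (44.6), Rdh10 (26.5), Rarg (20.7), Rara (19.3), Rarb (18.2), Cyp26b1 (5.52), Aldh1a3 (4.49) and Aldh1a1 (3.57). Rara and Rarg stood in the opposite order, and no other pair did. The ranges of Aldh1a2 and Crabp1 overlapped in each group, as did those of the receptors with their neighbours in this order, whereas Dhrs3 stood below Crabp1, Rdh10 below Dhrs3 and Cyp26b1 below all receptors in every library. Among all 22394 genes, Aldh1a2 ranked 190th by mean control FPKM and Crabp1 324th.

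A wider list of 56 genes of retinoid transport, metabolism, binding, coregulation and response was read from the same fit. Of these, 47 were in the table and 40 were tested, and 1 was called, higher in mutants (background 0.307%). At an unadjusted p under 0.05 there were 1 higher and 2 lower (background 9.63%). Groups did not overlap for 6 of the 40, 3 higher and 3 lower, near the background of 16.7%. The median log2 fold change over the 40 was -0.03, against -0.01 over all genes tested. The gene called was Tgm2, the retinoic acid-responsive transglutaminase gene, at 24.8, 24.1 and 30.4 FPKM in mutants 1 to 3, against 12.5, 13.0 and 15.1 FPKM in controls 1 to 3. All mutants were well above all controls. Tgm2 rose in the mutants by 0.96 on the log2 scale (SE 0.14, limma adjusted p = 0.0363). Its sign held in all 20 alternatives, with 0.86 to 1.04, but it was not called in 9 of them, including those without any 1 mutant and those without control 1 or control 3 (limma adjusted p 0.104 to 0.166). Tgm2 is also known from endothelial cells, whose listed markers were higher in the mutants as given above, and their part in the Tgm2 value was not tested.

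Other genes known to respond to retinoic acid did not pass in limma. Of the 18 listed, Tgm2 included, 17 were in the table and 15 were tested. They had 9 positive and 6 negative log2 fold changes and a median of 0.07. Ret, the ureteric bud receptor gene that depends on retinoic acid signalling, was at 6.95, 4.85 and 6.56 FPKM in mutants 1 to 3, against 5.37, 5.26 and 3.45 FPKM in controls 1 to 3 (log2 fold change 0.39, limma adjusted p = 0.567). For Ret, 2 of 3 mutants were above all controls, and mutant 2 was below controls 1 and 2. Ecm1, a matrix protein gene expressed in response to retinoic acid in the kidney stroma, was at 47.6, 41.1 and 63.7 FPKM in mutants 1 to 3, against 41.8, 19.6 and 41.9 FPKM in controls 1 to 3 (log2 fold change 0.62, limma adjusted p = 0.543). The authors' deposited table called 3 of the 15 listed genes to which it gave an adjusted p, all higher (background 3.07%). They were Tgm2, Ecm1 with an adjusted p of 0.000506, and Hoxd4 with 0.00525. Hoxd4 was at 18.4, 13.0 and 14.2 FPKM in mutants 1 to 3, against 17.8, 7.59 and 8.74 FPKM in controls 1 to 3. Its groups overlapped (log2 fold change 0.51, limma adjusted p = 0.591). Cyp26a1, the second promoter with a DR5 match printed above, was near the floor of detection, at 0.308, 0.169 and 0.519 FPKM in mutants 1 to 3, against 0.93, 0.495 and 0.367 FPKM in controls 1 to 3, from 134 reads in all (limma adjusted p = 0.605).

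None of the listed carriers, retinol dehydrogenases, binding proteins, RXR genes and coregulators was called. Of 8 retinol dehydrogenase genes tested, 5 had a positive and 3 a negative log2 fold change. Of 11 coregulator genes tested, 2 had a positive and 9 a negative one. Over all 16933 genes tested, 8308 were positive and 8625 negative. The non-overlapping genes of the wider list beside Tgm2 were Fabp5, Rbp4, Stra6l, Rxrb and Rdh12, the last a retinol dehydrogenase gene named after its values were seen, at 0.579 to 0.744 FPKM in mutants and 0.414 to 0.536 FPKM in controls. Fabp5, a fatty acid binding protein that can carry retinoic acid, was at 37.0 to 39.3 FPKM in mutants and 43.3 to 47.8 FPKM in controls. The Fabp5 difference was -0.25 on the log2 scale (limma adjusted p = 0.514). The retinol carrier Rbp4, at 0.841 to 1.47 FPKM in mutants and 0.553 to 0.819 FPKM in controls, and the retinol transporter gene Stra6l, at 0.0259 to 0.0565 FPKM in mutants and 0.0825 to 0.208 FPKM in controls, were low and did not pass (limma adjusted p = 0.535 and 0.411). The RXR genes were at 14.7 to 19.0 FPKM in mutants and 13.7 to 19.4 FPKM in controls for Rxra, 31.1 to 33.6 FPKM in mutants and 35.9 to 36.5 FPKM in controls for Rxrb, and 0.832 to 1.17 FPKM in mutants and 0.813 to 1.72 FPKM in controls for Rxrg. The Rxrb difference was -0.17 on the log2 scale (limma adjusted p = 0.602). The coactivator gene Ncoa2 was at 6.09 to 7.39 FPKM in mutants and 7.27 to 8.82 FPKM in controls (limma adjusted p = 0.549).

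The 3 genes whose levels over the 6 libraries were most like those of Aldh1a2, of 12214 compared, were Kdm6a, Pdzrn4 and Slc5a6. Pearson's r on log2(normalized count + 1) was 0.996, 0.994 and 0.990. These were picked as the highest of 12214 over only 6 libraries, so that r this high is a description only. Kdm6a, a histone demethylase gene on the X chromosome that is known to escape X inactivation, was at 5.18, 6.20 and 6.47 FPKM in mutants 1 to 3, against 9.34, 7.37 and 10.1 FPKM in controls 1 to 3. Controls 1 and 3, the libraries with the most Xist, were highest for Kdm6a as they were for Aldh1a2, and control 2 lay between them and the mutants. The same order held for Pdzrn4, at 0.438, 0.505 and 0.597 FPKM in mutants 1 to 3, against 1.71, 0.901 and 2.48 FPKM in controls 1 to 3. It also held for Slc5a6, at 3.51, 3.70 and 3.90 FPKM in mutants 1 to 3, against 4.67, 4.09 and 4.75 FPKM in controls 1 to 3. None of the 3 was called (limma adjusted p = 0.281 for Kdm6a, 0.18 for Pdzrn4 and 0.566 for Slc5a6).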

How the data were processed

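The table was deposited by the authors as 1 row per gene. STAR 2.6.0c, Trim Galore, DESeq2 and HTSeq 0.6.1p2 are named with build mm10, without roles or order, per the submitters' processing notes. Values of the 6 libraries were deposited as FPKM, a unit inferred from the values because the headers give none. The deposited table also held, per the file headers, the Wald score, the raw p-value, an adjusted p-value (missing for 6513 genes), the mean normalized signal and the log2 fold change with its error.

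FPKM times mean signal over mean FPKM gave size-factor normalized counts. All 134364 values were whole reads to within 1e-06 of a read, which gave the depths. The main test, limma 3.58.1 (R 4.3.3, eBayes with trend), used log2(normalized count + 1). It covered 16933 genes that reached 10 normalized counts in 3 libraries or more. With this pseudocount, fold changes of low genes are understated. The fit was tested on simulated counts. The genes and lists were chosen with earlier results of these data known. Named from the wider list were called genes, the 8 with the smallest p, Cyp26a1 and the RXR genes, and Hoxd4 after its values were seen. A gene that this rule names is not reported here. The 3 genes most like Aldh1a2 had a mean normalized count of at least 50 and were not predicted genes. Identifiers were matched to GENCODE M21 without their version suffix. Alternatives covered the pseudocount, the filter, scaling, FPKM, weights, trend, voom, a replicate block and leaving out libraries.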

Additional observations from a re-analysis of the deposited data

How the results depend on the processing

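The number of genes called was 52, and within 1.5 times that in the other alternatives not given here. It was 33 on FPKM with a pseudocount of 1 and 28 with 0.1, 17 with the replicate block, 380 with library weights (whose estimate stopped short of its tolerance), 32 without the intensity trend, and 9 to 158 leaving out 1 library. Among alternatives chosen after seeing the data, it was 679 in the libraries with Ddx3y and 185 without mutant 1 and control 2, the libraries with the highest epithelial sums. Of the 10 retinoic acid genes, 1 was called with library weights (Aldh1a2) and 0 in each of the other alternatives. Of the wider list, 1 was called in the main test. There were 0 on FPKM with either pseudocount, with the replicate block and without the trend. Leaving out 1 library gave 0 to 2, the 2 being Tgm2, higher, and the listed response gene Zfp703, lower, without control 2. Without mutant 1 and control 2 there were also 2, Tgm2, higher, and Zfp703, lower (log2 fold change -0.67, limma adjusted p = 0.0399).

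Aldh1a1, Aldh1a2, Rara, Rarg and Tgm2 kept their sign in all 20 alternatives. The sign turned for Rdh10 under scaling to total reads (0.033), upper quartile scaling (0.044) and in the libraries with Ddx3y (0.57), for Crabp1 under the same 3 (0.0040, 0.015 and 0.74), for Dhrs3 (0.15) and Cyp26b1 (0.041) in the libraries with Ddx3y, and for Rarb without mutant 1 and control 2 (0.080). Both scalings moved all genes alike, with the median over all genes at 0.028 and 0.040 against -0.007, and the turns at these near-zero values follow from that offset. Leaving out 1 library gave -0.29 to 0.22 for Rdh10, -0.42 to 0.38 for Crabp1, -0.24 to 0.018 for Cyp26b1, -0.80 to 0.078 for Aldh1a3, -0.25 to 0.033 for Rarb, 0.024 to 0.23 for Rarg, 0.12 to 0.31 for Rara and -0.38 to -0.082 for Dhrs3, which was at -0.47 without mutant 1 and control 2. The cause of the turns other than those under scaling was not tested. Same-numbered libraries did not deviate together throughout (r = 0.000811, -0.098 and 0.309 for numbers 1 to 3), so the numbers were not taken as pairs, and the replicate block changed no call among the 10 genes (Aldh1a2 limma adjusted p = 0.291) while Tgm2 was no longer called (limma adjusted p = 0.054). Depth limited Aldh1a1 most among the 10 genes. Among those named from the wider list it limited Stra6l (85 reads in all), Cyp26a1 (134) and Rbp4 (169) most.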
